A study of Mus musculus with 6 samples.

Results

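The autophagy machinery was followed as 38 genes, chosen by name from the 54532 genes of the count table, and all 38 were found and passed the filter on low counts that left 13377 genes for testing. They encode the proteins that start, build, close and load autophagosomes, together with the transcription factors TFEB and TFE3. The values come from bulk liver RNA of 6 male C57BL/6J mice that a high-fat diet (HFD) from 8 weeks of age, kept for 6 weeks, had made insulin resistant (IR). The mice fasted for 16 h, and then 3 of them received insulin at 0.75 units per kg by intraperitoneal injection (IR insulin) and 3 received bovine serum albumin, its vehicle (IR vehicle). Livers were collected 6 h later and each library represents 1 mouse. The HFD and the fast were common to both groups, and no lean group was analysed here, so the comparison asks what insulin did to these transcripts within diet-induced insulin resistance. In whole liver, fewer cells of a type and less RNA per cell cannot be told apart.

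Autophagy encloses cytoplasm in a double membrane, the autophagosome, and delivers it to lysosomes for degradation. In liver it supplies amino acids and lipids during fasting, and insulin is known to restrain it, quickly through mTORC1, which phosphorylates the ULK1 complex and TFEB, and more slowly through FOXO transcription factors. Much of this control acts on proteins, which RNA sequencing does not measure.

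No autophagy gene passed a test of IR insulin against IR vehicle. With the threshold at an adjusted p of 0.05, the quasi-likelihood test of edgeR called 0 of the 38 genes, against a background of 0.0% of all genes tested. At an unadjusted p under 0.05 it also called 0 of the 38, where 2.86% of all genes tested were called (1.0% higher and 1.86% lower with insulin). DESeq2 and voom called 0 of the 38 at either threshold, and at the unadjusted one they called 3.79% and 1.59% of all genes tested. Adjusted p values of the 38 genes ran from 0.852 to 0.998 and unadjusted ones from 0.110 to 0.992. The log2 fold changes (positive where expression was higher with insulin) lay between -0.61 for Rb1cc1 and 0.64 for Atg16l2, with 21 above and 17 below 0. Their median was 0.023, beside -0.017 over all genes tested, of which 48.6% were above 0. With a correction of each library for GC content, 15 were above and 23 below 0, where 42.3% of all genes tested were above 0. Without vehicle replicate 2, a library that stood apart, the split was 20 and 18 with a median of 0.0054, where 52.1% of all genes tested were above 0.

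Standard errors (SE) ran from 0.19 to 0.70. Their median was 0.27 with all libraries, 0.21 with the GC correction and 0.17 without vehicle replicate 2. In the fit of all libraries 27 of the 38 genes had a fold change smaller than its own SE, a share not determined for all genes tested. All 38 confidence intervals of 95% contained 0. For 22 genes the interval lay wholly between -1 and 1, so a doubling or a halving of these transcripts lay outside it. The lowest count of any of these genes in any library was 55 reads and the highest 24989.

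**Figure D1:**
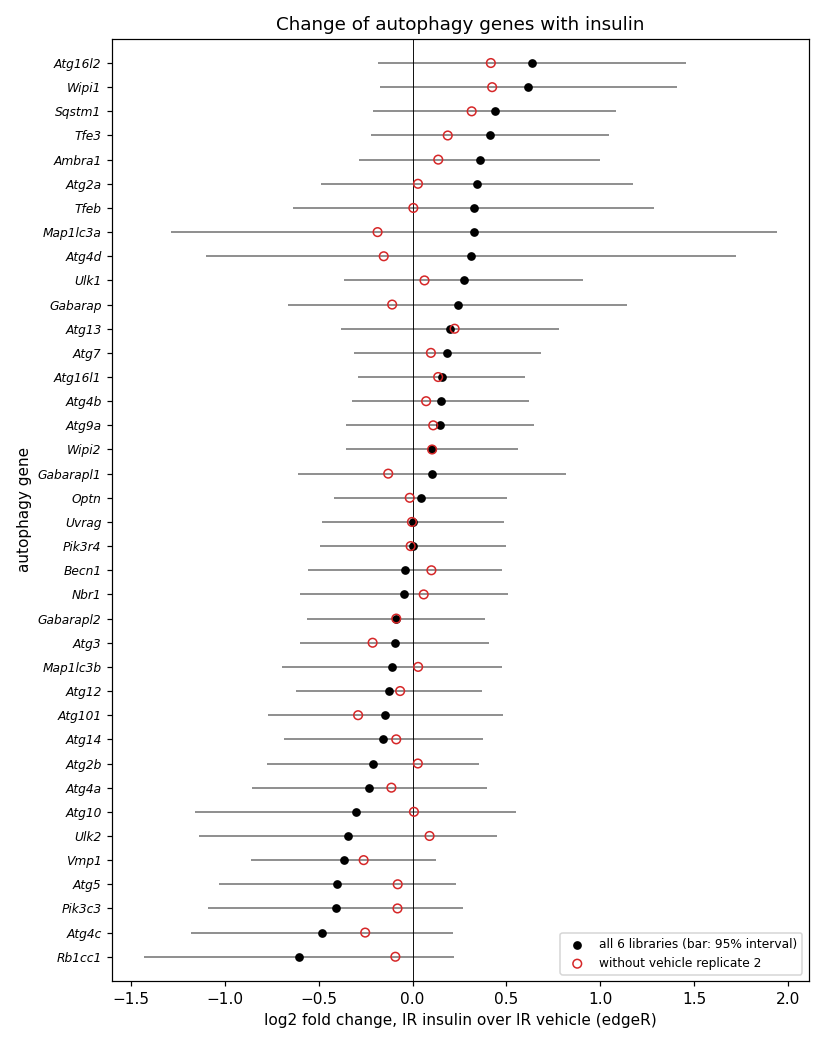
Log2 fold changes of the 38 autophagy genes, IR insulin over IR vehicle, on the x axis, with the genes on the y axis in order of their change. Filled points are the fit of all 6 libraries with 95% intervals as bars, and open circles are the fit without vehicle replicate 2. All 38 bars cross 0, and 29 of the open circles lie nearer to 0 than the filled point of their gene.

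The liver libraries held 18449986 to 21827619 counts. Vehicle replicate 2 stood apart from the other 5: it had 16470 genes with a count against 18389 to 18874, and it was the highest or the lowest library for 73.2% of all genes tested. Vehicle replicate 3 stood apart to a lesser degree, at an extreme for 47.2%. Across genes, which are not independent, Pearson's r of its log2 CPM with the 4 libraries other than vehicle replicate 2 was 0.948 to 0.954, where those 4 reached 0.980 to 0.988 among themselves. Among summed cell type markers vehicle replicate 2 was the highest for all 8 hepatocyte markers together (171534 CPM, counts scaled by TMM-adjusted library size, against 63394 to 117371 elsewhere), for 6 erythroid markers (1587 CPM against 312 to 627), for 5 B cell markers (40.3 CPM against 2.86 to 10.0) and for 7 neutrophil markers (79.99 CPM). It was the lowest for 7 Kupffer cell and macrophage markers (256 CPM against 279 to 542), for endothelial markers (139.7 CPM) and for bile duct markers (19.8 CPM). Vehicle replicate 3 was the lowest for neutrophil markers (4.67 CPM against 31.8 to 79.99) and the highest for endothelial markers (259 CPM against 139.7 to 163). The 6 stellate cell markers ran from 173 to 294 CPM, with neither library at an extreme. No marker was at 0 in all libraries. The part of these differences in the results for autophagy genes was not tested. Values without vehicle replicate 2 are given beside the genes that follow, except Pck1 and Foxo1.

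Ordered by their role, the genes of the ULK1 kinase complex come first. This complex, of the kinases ULK1 or ULK2 with ATG13, the scaffold FIP200 (encoded by Rb1cc1) and ATG101, receives the nutrient signals that start autophagy. Rb1cc1 measured 57.6, 119.6 and 47.6 CPM in vehicle replicates 1, 2 and 3 and 50.0, 54.1 and 43.6 CPM in insulin replicates 1, 2 and 3. Vehicle replicate 2 was far above the 5 other livers and the groups overlapped. Its log2 fold change was -0.61 ± 0.36 (SE, n = 3 against 3 mice, edgeR unadjusted p = 0.129), and it was -0.09 without vehicle replicate 2. Without vehicle replicate 3 in its place it was -0.85, at an unadjusted p = 0.0354 (adjusted p = 0.527), and 6.51% of all genes were under 0.05 in that fit. With the GC correction it was -0.21 (edgeR unadjusted p = 0.291).

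The kinases themselves had fold changes of opposite sign, each about the size of its SE. Ulk1 measured 43.3, 28.3 and 53.2 CPM in vehicle livers and 55.3, 52.5 and 42.8 in insulin livers, in replicate order, with a log2 fold change of 0.27 ± 0.28 (unadjusted p = 0.355). Ulk2 measured 58.0, 99.4 and 39.3 CPM in vehicle livers and 44.5, 56.7 and 53.6 in insulin livers, with -0.34 ± 0.34 (unadjusted p = 0.346). In each case the extreme value was that of vehicle replicate 2, the lowest for Ulk1 and the highest for Ulk2. Without it the log2 fold changes were 0.06 and 0.09. Per length, in CPM per kilobase of the longest annotated transcript, Ulk2 made up 40.1% to 54.9% of the level of both kinases together in 5 livers and 76.1% in vehicle replicate 2. Atg101, the member of the complex with the highest level per length (26.9 ± 6.27, mean ± SD of 6 livers), measured 29.9, 28.1 and 49.7 CPM in vehicle livers and 34.6, 32.6 and 30.03 in insulin livers. Only vehicle replicate 3 was high for it, the groups overlapped, and the log2 fold change was -0.15 ± 0.27 (unadjusted p = 0.603). With a correction of each library for GC content this value became -0.63 and its unadjusted p 0.0437, with an adjusted p of 0.932 (3.52% of all genes passed 0.05 unadjusted there), and without vehicle replicate 2 it was -0.29. Atg13 had a log2 fold change of 0.20 ± 0.25 (unadjusted p = 0.455), and 0.22 without that library.

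The class III phosphatidylinositol 3-kinase complexes mark the forming membrane with the lipid PI3P. Their catalytic subunit VPS34, encoded by Pik3c3, measured 18.3, 31.9 and 17.98 CPM in vehicle livers and 14.7, 20.2 and 16.3 in insulin livers. The 3 insulin livers lay on either side of vehicle replicates 1 and 3, and vehicle replicate 2 was above them all, so that the log2 fold change of -0.41 ± 0.29 (unadjusted p = 0.201) was -0.08 without that library. Ambra1, a regulator that binds Beclin 1, measured 24.7, 12.5 and 19.6 CPM in vehicle livers and 23.9, 23.8 and 25.2 in insulin livers. Here vehicle replicate 2 was the lowest, vehicle replicate 1 lay inside the insulin values, and the log2 fold change of 0.36 ± 0.28 (unadjusted p = 0.235) became 0.14 without replicate 2. Becn1, which encodes the scaffold Beclin 1 and had the highest level per length of this group (7.94 ± 1.02), measured 35.5, 41.6 and 28.5 CPM in vehicle livers and 31.7, 34.1 and 36.7 in insulin livers. Its livers overlapped throughout, at a log2 fold change of -0.04 ± 0.22 with a 95% interval of -0.56 to 0.48, and at 0.10 without vehicle replicate 2. The remaining subunits had fold changes smaller than their SE. Pik3r4, the regulatory VPS15, stood at 0.00 ± 0.22, Uvrag, of the complex that acts later at endosomes, at 0.00 ± 0.21, and Atg14, which directs the complex to autophagosome formation, at -0.16 ± 0.23. The intervals of the first 2 were -0.49 to 0.50 and -0.48 to 0.49, and without vehicle replicate 2 the 3 values were -0.01, -0.0036 and -0.09.

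Membrane supply and the proteins that read PI3P held a gene whose groups did not overlap. Vmp1, a membrane protein of the endoplasmic reticulum that moves lipids between bilayer leaflets, measured 188, 236 and 198 CPM in vehicle replicates 1, 2 and 3 and 172, 152 and 158 CPM in insulin replicates 1, 2 and 3. Every insulin liver was below every vehicle liver. This gave a log2 fold change of -0.37 ± 0.21 (95% interval -0.86 to 0.12, edgeR unadjusted p = 0.123, adjusted p = 0.852), and -0.26 without vehicle replicate 2, which was its highest. Vmp1 lies at chr11:86583865-86683836 on the minus strand of GRCm38 and had the highest level per length of its group (66.0 ± 11.1).

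Wipi1, which encodes a propeller protein that binds PI3P, had the smallest p of all 38 genes. It measured 27.4, 12.7 and 13.9 CPM in vehicle livers and 34.2, 25.5 and 23.2 in insulin livers. Vehicle replicates 2 and 3 were below all 3 insulin livers, while vehicle replicate 1 was above insulin replicates 2 and 3. The log2 fold change was 0.62 ± 0.34 (95% interval -0.18 to 1.41, unadjusted p = 0.110, adjusted p = 0.852). It was 0.42 without vehicle replicate 2. Without vehicle replicate 1 it was 1.05, where the unadjusted p was 0.00826 and, after adjustment, 0.473. With the GC correction the log2 fold change of Wipi1 was 0.49 (edgeR unadjusted p = 0.129). Its close relative Wipi2, which brings ATG16L1 to the membrane, ran from 77.1 to 91.8 CPM over the 6 livers, with a log2 fold change of 0.10 ± 0.20 and the same value, 0.10, without vehicle replicate 2. Atg9a, a scramblase carried on small vesicles, stood at 0.14 ± 0.22, and 0.11 without it. Atg2a and Atg2b, which transfer lipids into the growing membrane, stood at 0.34 ± 0.36 and -0.21 ± 0.25, and without vehicle replicate 2 at 0.03 and 0.03. Atg2a supplied 71.7% to 76.3% of the level per length of this pair in 5 livers and 42.8% in vehicle replicate 2.

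The ATG12 conjugation system joins ATG12 to ATG5 by the E1-like ATG7 and the E2-like ATG10, and the product binds ATG16L1. Atg5 measured 70.6, 124 and 71.9 CPM in vehicle livers and 67.5, 69.5 and 64.6 in insulin livers. All 3 insulin livers were below all 3 vehicle livers, but vehicle replicates 1 and 3 were close above them and vehicle replicate 2 was far higher. The log2 fold change was -0.40 ± 0.27 (95% interval -1.03 to 0.23, unadjusted p = 0.180, adjusted p = 0.852), and -0.08 without vehicle replicate 2. Atg5, at chr10:44268358-44364291 on the plus strand, was also the highest of this group per length (33.2 ± 9.64).

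Atg16l1 separated the groups in the other direction, over a narrow range. It measured 40.1, 39.0 and 41.7 CPM in vehicle livers and 47.9, 42.5 and 44.1 in insulin livers. The highest vehicle liver and the lowest insulin liver were adjacent, and the log2 fold change was 0.15 ± 0.19 (unadjusted p = 0.446), smaller than its SE, and 0.14 without vehicle replicate 2. Its paralogue Atg16l2 had the highest log2 fold change of the 38 genes. Atg16l2 measured 25.0, 10.6 and 12.4 CPM in vehicle livers and 28.5, 20.0 and 26.2 in insulin livers. As for Wipi1, vehicle replicates 2 and 3 were below all insulin livers and vehicle replicate 1 lay among them. Its log2 fold change was 0.64 ± 0.36 (95% interval -0.18 to 1.46, unadjusted p = 0.112), 0.42 without vehicle replicate 2, and 1.11 without vehicle replicate 1 (unadjusted p = 0.00613, adjusted p = 0.473). With the GC correction it was 0.58 (edgeR unadjusted p = 0.101). Atg7, Atg10 and Atg12 stood at 0.19 ± 0.22, -0.30 ± 0.37 and -0.13 ± 0.21, and without vehicle replicate 2 at 0.10, 0.01 and -0.07. Atg10 was the lowest of all 38 genes per length (2.53 ± 0.773).

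With Atg16l1, Atg5 and Vmp1 described, the 4 genes whose groups did not overlap are complete but for Tfe3. They are 10.5% of the 38, beside 12.3% of all genes tested (6.25% higher and 6.04% lower with insulin), and 2 of the 4 were higher and 2 lower. The share is thus near that of the whole table.

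Promoters of 32 of the 38 genes were available from RefSeq (GRCm38.p6), as 300-base windows from 250 bases before to 50 after a transcription start. Some genes had several starts, and the 32 had 40 windows. The 5 motifs below were searched in them on both strands. TCACGTGA, the element bound by TFEB and TFE3, occurred in 0.974% of all 32851 windows and in 1 of the 40, of Atg3. The shorter CACGTG within it occurred in 7.15% of all windows and in 4 of the 40, of Atg3, Atg5, Atg7 and Atg14. TGACNNNGC, bound by NRF2, occurred in 12.4% of all windows and in 6 of the 40, of Atg13, Map1lc3b, Ulk2 and Vmp1, with more than 1 window of Vmp1 among them. GTAAACA of FOXO factors (3.65% of windows) and TGATGNAA of ATF4 (3.97%) occurred in 0 of the 32. Shown are Vmp1 (1 of its windows) and Atg5, the 2 genes whose insulin livers were all lower, and Atg3, with the only match to the full TFEB element. Capitals mark the matches: TGACNNNGC, read on the opposite strand, in Vmp1, CACGTG in Atg5, and CACGTG and TCACGTGA in Atg3, where the latter begins at position -72 from the start.
Vmp1, chr11:86683787-86684086, minus strand: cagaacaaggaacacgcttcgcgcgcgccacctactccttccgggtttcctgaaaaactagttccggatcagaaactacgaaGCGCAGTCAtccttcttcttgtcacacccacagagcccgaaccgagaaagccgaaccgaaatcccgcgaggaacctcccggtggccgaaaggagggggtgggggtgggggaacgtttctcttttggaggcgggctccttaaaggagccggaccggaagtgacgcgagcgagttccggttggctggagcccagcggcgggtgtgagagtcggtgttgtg
Atg5, chr10:44268089-44268388, plus strand: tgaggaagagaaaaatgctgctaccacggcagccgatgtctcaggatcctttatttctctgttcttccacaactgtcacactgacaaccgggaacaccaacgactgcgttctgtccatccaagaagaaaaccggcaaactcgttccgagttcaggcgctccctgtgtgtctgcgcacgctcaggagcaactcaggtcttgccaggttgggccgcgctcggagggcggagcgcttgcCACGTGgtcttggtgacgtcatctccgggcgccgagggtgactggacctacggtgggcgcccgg
Atg3, chr16:45158579-45158878, plus strand: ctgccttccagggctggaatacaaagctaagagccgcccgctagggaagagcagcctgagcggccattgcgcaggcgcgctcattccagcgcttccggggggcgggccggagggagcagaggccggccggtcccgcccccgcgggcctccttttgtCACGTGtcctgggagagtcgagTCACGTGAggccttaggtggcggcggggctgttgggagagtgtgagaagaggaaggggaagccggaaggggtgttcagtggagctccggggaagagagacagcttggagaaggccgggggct
Atg3, the enzyme that attaches ATG8 proteins to lipid, ran from 63.3 CPM in vehicle replicate 2 to 90.4 CPM in vehicle replicate 3, with overlapping groups and a log2 fold change of -0.10 ± 0.22 (unadjusted p = 0.671), or -0.21 without vehicle replicate 2. A match of letters is a description of the window, not of binding.

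The ATG8 proteins are small ubiquitin-like proteins that are attached to lipid on the autophagosome, after ATG4 proteases trim them and with ATG7 and ATG3 as enzymes. Gabarap was the most abundant of them per length (188 ± 55.6), ahead of Gabarapl1 (132 ± 31.6), Map1lc3b (58.0 ± 9.73), Map1lc3a (40.2 ± 18.6) and Gabarapl2 (32.1 ± 3.06, mean ± SD of 6 livers). Over the 6 livers the ranges overlapped for each pair of neighbours in this order except Gabarapl1 and Map1lc3b. Gabarap measured 287, 104 and 309 CPM in vehicle livers and 285, 275 and 268 in insulin livers. The level was alike in 5 livers and far lower in vehicle replicate 2. Its log2 fold change was 0.24 ± 0.39 (unadjusted p = 0.558), and -0.11 without that library. Map1lc3a showed the widest gap of all 38 genes, at 48.0, 5.34 and 65.7 CPM in vehicle livers and 54.4, 51.1 and 43.8 in insulin livers. In vehicle replicate 2 it was at 10.5% of the median of the other livers, and its log2 fold change of 0.33 ± 0.70 became -0.19 without this library.

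As shares of the summed level per length of the 5 ATG8 genes, Gabarap held 41.4% to 46.5% in 5 livers and 28.8% in vehicle replicate 2. Map1lc3b, which encodes the LC3B protein used as the standard autophagosome marker, held 8.98% to 12.8% in 5 livers and 26.5% in vehicle replicate 2. Map1lc3a held 8.98% to 10.9% and 1.80%. Between the other vehicle livers and the insulin livers these shares overlapped. The summed level was 429 ± 143 with vehicle and 472 ± 40.7 with insulin (CPM per kilobase, SD, n = 3).

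**Figure D2:**
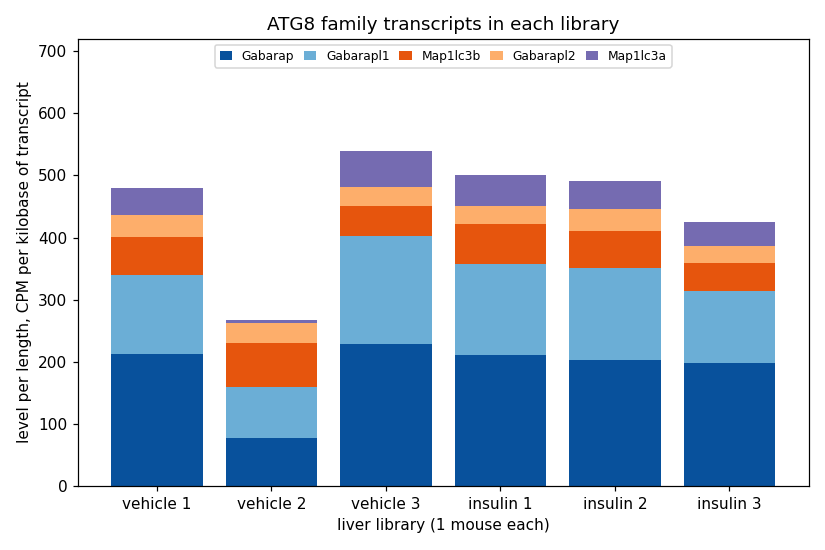
Levels of the 5 ATG8 transcripts in each liver library, stacked, in CPM per kilobase of the longest annotated transcript. The total was 426 to 540.1 in 5 libraries and 267 in vehicle replicate 2, where Gabarap and Map1lc3a were low and Map1lc3b was not.

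Of the processing enzymes, Atg4c measured 11.4, 18.2 and 12.6 CPM in vehicle livers and 7.25, 10.2 and 12.7 in insulin livers. Vehicle replicate 2 was highest and insulin replicate 1 lowest, the groups overlapped, and the log2 fold change was -0.48 ± 0.30 (unadjusted p = 0.148), or -0.25 without vehicle replicate 2. Atg4d spread most widely of the enzymes, at 5.16 CPM in vehicle replicate 2 and 42.7 CPM in vehicle replicate 3, with the insulin livers between them. Its log2 fold change of 0.31 ± 0.61 became -0.15 without vehicle replicate 2. Without vehicle replicate 3 it became 1.11 (edgeR unadjusted p = 0.0808). Atg4a stood at -0.23 ± 0.27 and Atg4b, the most active protease of the family, at 0.15 ± 0.20, and without vehicle replicate 2 at -0.11 and 0.07. Map1lc3b, Gabarapl1 and Gabarapl2 stood at -0.11 ± 0.25, 0.10 ± 0.31 and -0.09 ± 0.21, and without that library at 0.03, -0.13 and -0.09.

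Cargo receptors bind both ubiquitinated cargo and ATG8 proteins. Sqstm1, which encodes p62, was the most abundant of the 38 genes per length (304 ± 73.5). It measured 899, 563 and 611 CPM in vehicle replicates 1, 2 and 3 and 913, 1082 and 814 CPM in insulin replicates 1, 2 and 3. Vehicle replicates 2 and 3 were below all insulin livers, and vehicle replicate 1 lay among them. The log2 fold change was 0.44 ± 0.28 (95% interval -0.21 to 1.09, unadjusted p = 0.157, adjusted p = 0.852) and 0.31 without vehicle replicate 2. Without vehicle replicate 1 it was 0.68, where the unadjusted p was 0.0385 and, after adjustment, 0.506. With the GC correction it was 0.18 (edgeR unadjusted p = 0.504). Nbr1 and Optn, further receptors for ubiquitinated cargo, stood at -0.05 ± 0.24 and 0.04 ± 0.20, and without vehicle replicate 2 at 0.06 and -0.02. The interval of Optn was -0.42 to 0.51 with all libraries. Sqstm1 supplied 72.2% to 76.6% of the summed level of the 3 receptors in vehicle replicates 2 and 3, 79.99% in vehicle replicate 1 and 80.7% to 83.3% with insulin.

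Wipi1, Atg16l2 and Sqstm1 therefore shared a layout, with vehicle replicate 1 at the level of the insulin livers. Without vehicle replicate 1 an unadjusted p under 0.05 was reached by these 3 of the 38 genes, beside 9.81% of all genes tested in that fit. Without vehicle replicate 2 it was reached by 0 of the 38, beside 3.74%, and without vehicle replicate 3 by 1 (Rb1cc1), beside 6.51%.

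TFEB and TFE3 are transcription factors that induce lysosomal and autophagy genes when they are in the nucleus. Tfe3 measured 17.9, 9.70 and 16.8 CPM in vehicle livers and 19.4, 20.2 and 19.6 in insulin livers. Every insulin liver was above every vehicle liver, the 3 insulin livers lay close together, and vehicle replicate 2 was lowest. The log2 fold change was 0.41 ± 0.27 (95% interval -0.22 to 1.05, unadjusted p = 0.173, adjusted p = 0.852), and 0.19 without vehicle replicate 2. Tfeb, the higher of the pair per length (3.46 ± 1.22 against 2.73 ± 0.618, within their spread), measured 6.66, 3.50 and 11.4 CPM in vehicle livers and 8.51, 7.79 and 10.7 in insulin livers. That order depends on the transcript lengths used, 2342 bases for Tfeb and 6328 for Tfe3. In CPM Tfe3 was the higher, with means of 14.8 (vehicle) and 19.7 (insulin) against 7.17 and 9.02 for Tfeb. The vehicle livers held both the lowest and the highest value of Tfeb. Its log2 fold change was 0.33 ± 0.42 (unadjusted p = 0.456), 0.00 without vehicle replicate 2 and -0.31 with the GC correction. Without vehicle replicate 3, its highest library, it was 0.82 (edgeR unadjusted p = 0.0563, adjusted p = 0.527).

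**Figure D3:**
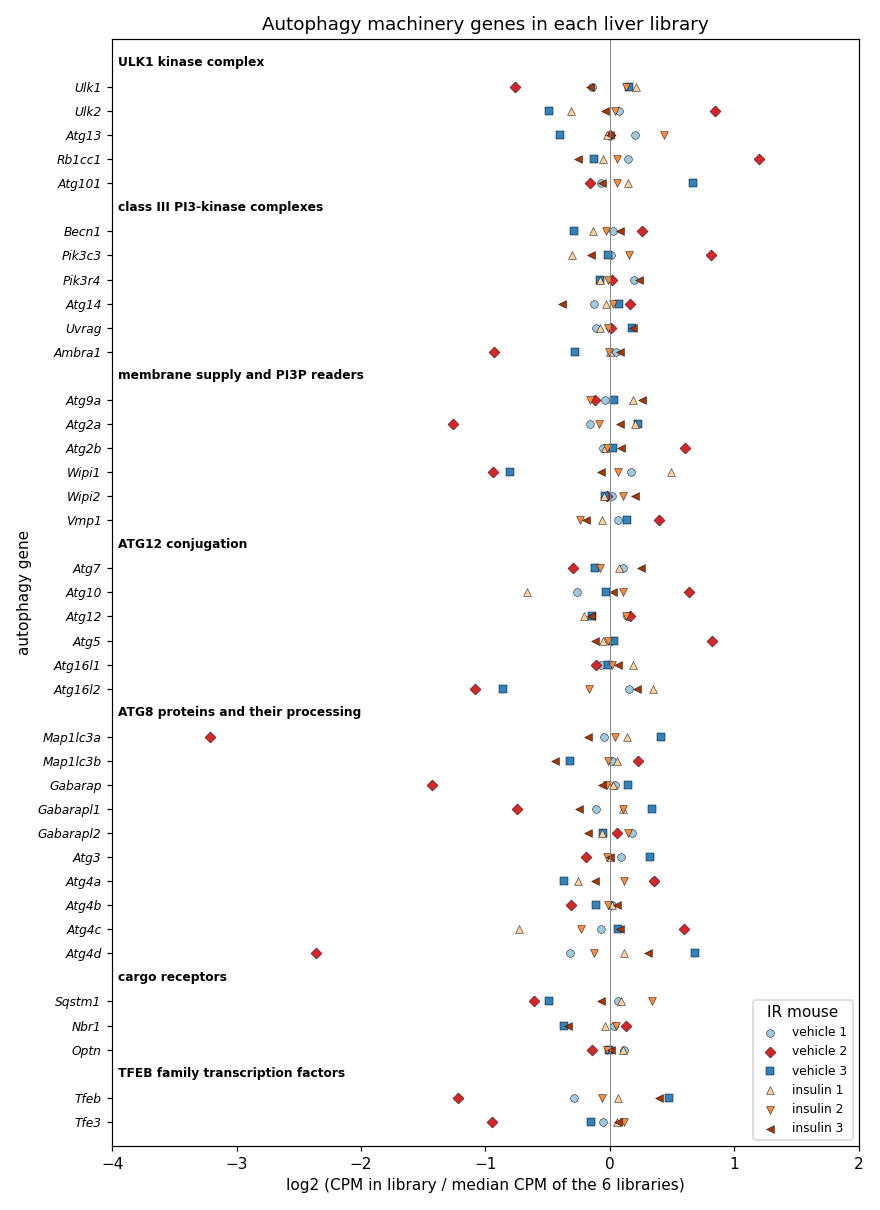
Level of each autophagy gene in each liver library, as log2 of its CPM over the median of the 6 libraries (x axis), with genes grouped by role (y axis). Each symbol is 1 library; vehicle replicate 2 (red diamonds) was the highest for 13 genes and the lowest for 18, and lay furthest out for Map1lc3a, at 10.5% of the median of the others.

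Much of the variation among the 38 genes was between vehicle replicate 2 and the rest. That library was the highest for 13 and the lowest for 18 of the 38, together 81.6%, beside 73.2% of all genes tested. It was under 50% of the median of the other livers for 8 genes and over 150% for 7. The direction went with base composition. Among the 19 genes with GC content at or under the median of 50.5%, vehicle replicate 2 deviated by a median log2 value of 0.31 and was the highest library for 12. Among the 19 above it, its median deviation was -0.85 and it was the lowest for 14. Across the 38 genes, which share the same library and are not independent, Spearman's rho of its deviation with GC content was -0.74, against -0.67 over all genes tested. In the other libraries this rho ran from -0.37 (vehicle replicate 1) to 0.72 (insulin replicate 1), against -0.15 and 0.24 over all genes tested. The deviations of insulin replicate 1 were smaller, with a median absolute value of 0.14, against 0.55 for vehicle replicate 2.

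The fold changes, too, went with base composition. Their rho with GC content over the 38 genes was 0.70 with all libraries, 0.26 without vehicle replicate 2 and -0.05 with the GC correction. Over all genes tested it was 0.56, 0.11 and 0.0091. The GC correction takes out the trend of each library with GC content, so the low rho after it follows from the method. Without vehicle replicate 2, 13 of the 38 fold changes changed sign, 29 were smaller in size, and the range narrowed to -0.29 to 0.42. With the GC correction, 16 changed sign. The shares of all genes tested that changed sign or became smaller were not determined. The part of GC content in the fold changes of single genes was not tested beyond these values.

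**Figure D4:**
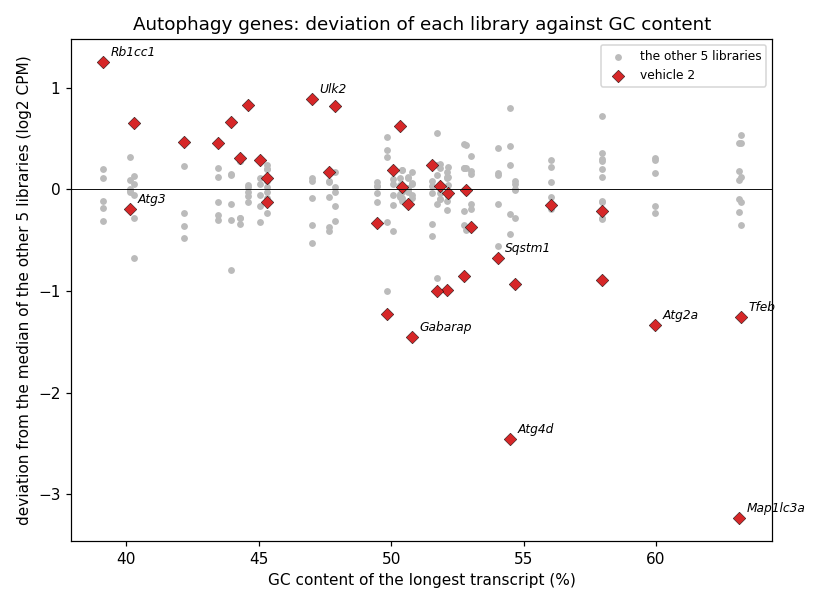
Deviation of each autophagy gene in vehicle replicate 2 (red diamonds) and in the other 5 libraries (grey points) from the median of the remaining libraries, in log2 CPM (y axis), against the GC content of the gene's longest transcript in percent (x axis). Vehicle replicate 2 ran from mostly above 0 at low GC content to below 0 at high GC content, with a rho of -0.74 over the 38 genes.

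Among the other 5 livers the spread was smaller. The highest of these 5 values over the lowest was 1.31 in the median gene, under 1.5 for 28 of the 38 and under 2 for 35. The smallest ratio was 1.09, for Optn, and the largest 2.45, for Wipi1. With vehicle replicate 2 included again, the coefficient of variation of the median gene was 11.7% among insulin livers and 26.2% among vehicle livers. It was larger with vehicle for 30 of the 38 genes, beside 85.1% of all genes tested. It was not determined without that library. Of the 38 genes, 13 kept their sign in the fit of all libraries and in all 14 alternatives tried: Ambra1, Atg16l1, Atg16l2, Atg4b, Sqstm1, Tfe3 and Wipi1 higher with insulin, and Atg14, Atg4c, Atg5, Pik3c3, Rb1cc1 and Vmp1 lower. The alternatives refit the same livers and are not independent of each other. Some of these signs were kept by little, with Atg14 at -0.0013 and Atg4b at 0.045 in 1 alternative. The share of all genes tested that kept their sign was not determined.

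Genes around the core machinery were read from 4 further lists. Of 29 tested genes for other autophagy steps (selective receptors, fusion, PI3P regulators), 10 were higher and 19 lower with insulin, with a median log2 fold change of -0.08. The split was 15 and 14 without vehicle replicate 2 (median 0.03) and also in voom (median 0.0050). In the fit of all libraries 1 of the 29 had an unadjusted p under 0.05, beside 2.86% of all genes tested. It was Trp53inp1, which encodes a stress protein that binds ATG8 proteins. Trp53inp1 measured 43.3, 104 and 91.3 CPM in vehicle livers and 38.8, 48.7 and 48.6 in insulin livers. Vehicle replicates 2 and 3 were above the insulin livers, vehicle replicate 1 was among them, and the log2 fold change was -0.81 ± 0.34 (unadjusted p = 0.0434, adjusted p = 0.852), or -0.56 without vehicle replicate 2. Its unadjusted p was over 0.05 without that library (0.104), in voom (0.293), with the GC correction (0.150), and without vehicle replicate 3 or any of the insulin libraries (0.0841 to 0.137). Of the 29 genes, 1 was under 0.05 with RLE factors, with upper-quartile factors, in DESeq2 and with a replicate block. The shares of all genes tested were 3.0%, 2.61%, 3.79% and 2.4%. Without vehicle replicate 1 it was 4 of the 29, beside 9.81%, and with the block and GC correction 0, beside 2.5%. The mitophagy receptor Bnip3l stood at -0.56 ± 0.29 and Plekhm1, an adaptor for fusion with lysosomes, at 0.45 ± 0.25, and without vehicle replicate 2 at -0.27 and 0.32.

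Of 38 lysosome genes, 12 were higher and 26 lower, with a median of -0.10. Without vehicle replicate 2 the split was 9 and 29 (median -0.09), without vehicle replicate 3 it was 17 and 21 (median -0.05), and with the GC correction 8 and 30 (median -0.18). Of all genes tested, 52.1%, 51.5% and 42.3% were higher with insulin in the same fits, in that order. An unadjusted p under 0.05 was reached by 0 of the 38 in edgeR, 0 in voom and 1 in DESeq2, beside 2.86%, 1.59% and 3.79% of all genes tested. The groups did not overlap for 2 of them higher and 4 lower with insulin, beside 6.25% and 6.04% of all genes tested. Lamp2, a major lysosomal membrane protein, measured 809, 2638 and 1017 CPM in vehicle livers and 786, 757 and 615 in insulin livers. Every insulin liver was below every vehicle liver, narrowly for vehicle replicate 1 and widely for vehicle replicate 2, and the log2 fold change of -1.05 ± 0.45 (unadjusted p = 0.0505) was -0.34 without the latter. Sgsh, an enzyme of heparan sulfate breakdown, stood at 0.59 ± 0.26 and Atp6v1h, a proton pump subunit, at -0.45 ± 0.27, and without vehicle replicate 2 at 0.53 and -0.16.

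Of 35 tested genes of nutrient sensing by mTORC1 and AMPK, 20 were higher and 15 lower, with a median of 0.07. The split was 16 and 19 without vehicle replicate 2 (median -0.0047) and 15 and 20 with the GC correction (median -0.03). Of all genes tested, 52.1% and 42.3% were higher with insulin in those fits. An unadjusted p under 0.05 was reached by 0 of the 35 in edgeR, DESeq2 and voom, and by 1 without vehicle replicate 2, beside 3.74% of all genes. The smallest p belonged to Prkaa2, a catalytic subunit of AMPK, at 37.1, 74.6 and 49.9 CPM in vehicle livers and 32.9, 32.5 and 39.0 in insulin livers. Vehicle replicate 2 was highest, vehicle replicate 1 lay inside the insulin values, and the log2 fold change of -0.63 ± 0.29 (unadjusted p = 0.0600) was -0.32 without vehicle replicate 2. Sesn3, a stress-induced regulator of mTORC1, stood at -0.76 ± 0.40 and Depdc5, of the GATOR1 complex, at 0.37 ± 0.26, and without vehicle replicate 2 at -0.16 and 0.28.

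**Figure D5:**
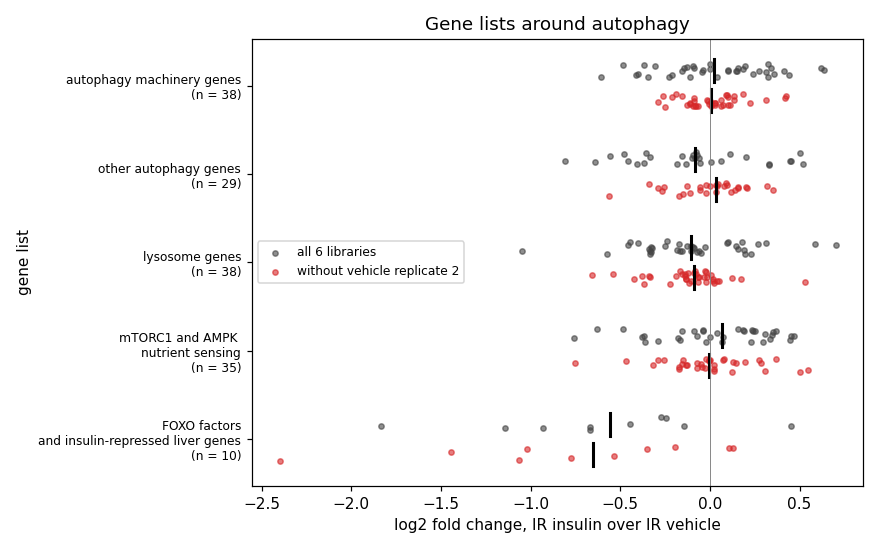
Log2 fold changes, IR insulin over IR vehicle (x axis), of the autophagy machinery genes and of 4 further gene lists (y axis, with the number of genes tested). Dots are genes, vertical bars medians, grey the fit of all 6 libraries and red the fit without vehicle replicate 2; the median of the machinery genes was 0.023 and that of the 10 FOXO and insulin-repressed genes -0.56.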

How the data were processed

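Liver RNA of 6 mice was measured, 3 per group, with groups and replicate numbers taken from the sample labels, which name no batch. The deposited table held raw read counts per gene. The authors' methods name NEBNext Ultra libraries, an Illumina HiSeq, and alignment to mm10 with Bowtie2 (version 2.2.3 in the submitters' processing notes). The counting program, annotation and strand setting are not given in the sources used here. Exons of 13 of the 38 genes overlap another gene, and in 3 (Atg9a, Atg2b and Atg16l2) that gene had at least 10% as many counts, so these counts carry some uncertainty.

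Groups were compared by the quasi-likelihood test of edgeR 4.0.16 in R 4.3.3, with TMM normalization and filterByExpr (minimum count 10, minimum total 15), and p values were adjusted by Benjamini-Hochberg over 13377 genes. CPM are counts divided by the TMM-scaled library size. SE derive from the F statistic. Levels per length use the longest GENCODE M21 transcript, and the order of genes per length depends on that choice. The transcript had 4 exons for Atg16l1, 3 exons and 4138 bases for Map1lc3b, and 6328 bases for Tfe3, which makes their levels uncertain. Deviations are the log2 CPM of 1 library minus the median of the other 5. The GC correction was a loess offset per library (span 0.5). Alternatives were RLE and upper-quartile size factors, no filter, DESeq2 1.42.0, voom of limma 3.58.1 with quality weights, a replicate block, the GC offset without and with the block, and leaving out each replicate. The scripts were tested on simulated data.

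The genes and lists were chosen with earlier results of these data known, and are not independent of them. Values in each library are given for genes with an unadjusted p under 0.05 or groups that did not overlap, the 12 with the smallest p, and the highest per length of each role, and from each further list the 3 genes with the smallest p were named. Map1lc3a, Atg3 and Atg4d values were added after they were seen. Library totals ran from 18449986 to 21827619 counts, and the biological coefficient of variation of the fit of all 6 libraries was 0.357. Protein sequences were not used here.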

Additional observations from a re-analysis of the deposited data

How the results depend on the processing

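The count of autophagy genes at an unadjusted p under 0.05 was 0 under TMM, RLE and upper-quartile scaling, without the filter, in DESeq2 and in voom, 1 with the GC offset (Atg101), and 2 with the replicate block, alone or with the GC offset (Wipi1 and Atg16l2), where 2.4% and 2.5% of all genes were under 0.05. Leaving out 1 library gave 0 to 3: 3 without vehicle replicate 1, 1 without vehicle replicate 3 (Rb1cc1), and 0 without any other. At an adjusted p under 0.05 the count was 0 in all 14 alternatives. The share of all genes at an unadjusted p under 0.05 also varied, from 0.727% without insulin replicate 1 to 9.81% without vehicle replicate 1. Autophagy genes whose groups did not overlap numbered 5 to 12 of the 38 with 1 library fewer: 11 without vehicle replicate 1, 12 without vehicle replicate 3 and 10 without insulin replicate 2, beside 30.7%, 31.2% and 19.8% of all genes tested. They numbered 6 without vehicle replicate 2, 5 without insulin replicate 1 and 6 without insulin replicate 3, beside 19.2%, 17.9% and 19.2%. For the further lists together, 1 of 112 tested genes was under 0.05 unadjusted in the fit of all libraries, beside 2.86% of all genes. The count was 2 with RLE and with upper-quartile factors, beside 3.0% and 2.61%. It was 3 without the filter (of 114), in DESeq2 and with the GC offset, beside 3.22%, 3.79% and 3.52%. With the block, alone or with the GC offset, it was 3, beside 2.4% and 2.5%. Without vehicle replicates 1, 2 and 3 it was 9, 4 and 3, beside 9.81%, 3.74% and 6.51%. Without insulin replicates 1, 2 and 3 it was 0, 0 and 2, beside 0.727%, 1.05% and 0.875%. Same-numbered mice of the groups did not deviate together (correlations of -0.039, 0.069 and 0.017), so the replicate numbers were not taken to pair them; of the vehicle mice, only replicate 2 correlated best with its own number. With the block, the median of the FOXO and insulin-repressed genes was -0.31. Of 406 fold changes of 29 named genes, 394 kept their direction. These 29 were picked from the same data, mostly by a small p, which favours a kept direction. Of all 38 autophagy genes, 13 changed sign without vehicle replicate 2 and 16 with the GC offset. Becn1 turned to 0.0090 with upper-quartile factors, 0.10 with the GC offset alone or with the block, 0.10 without vehicle replicate 2 and 0.015 without insulin replicate 1. Tfeb turned to -0.31 with the GC offset and -0.28 with the block added, and Ulk1 to -0.17 in both. Without vehicle replicate 2, Gabarap turned to -0.11 and Ulk2 to 0.090, and Atg101 turned to 0.16 without vehicle replicate 3. With 1 library fewer, the values ran from -0.17 to 0.10 for Becn1, -0.29 to 0.16 for Atg101, -0.11 to 0.49 for Gabarap and -0.61 to 0.090 for Ulk2. The cause was not tested.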

Other observations

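Genes that insulin is known to repress in liver through FOXO transcription factors, with the factors themselves, gave a list of 10. Of these, 1 was higher and 9 were lower with insulin, where 48.6% of all genes tested were higher. The log2 fold changes ran from -1.84 to 0.45 with a median of -0.56. An unadjusted p under 0.05 was reached by 0 in edgeR, 1 in DESeq2 and 1 in voom, beside 2.86%, 3.79% and 1.59% of all genes tested. G6pc, the last enzyme of glucose release, measured 122, 104 and 365 CPM in vehicle livers and 61.9, 80.7 and 126 in insulin livers. Vehicle replicate 3 was far above the other livers, vehicle replicates 1 and 2 lay inside the insulin values, and the log2 fold change was -1.14 ± 0.52 (unadjusted p = 0.0579), or -1.44 without vehicle replicate 2 (unadjusted p = 0.0178, adjusted p = 0.891). Pck1, an early enzyme of gluconeogenesis, measured 1039, 1666 and 3543 CPM in vehicle livers and 841, 647 and 1786 in insulin livers. Its groups overlapped, at -0.93 ± 0.54 (unadjusted p = 0.125). Foxo1 measured 21.4, 33.9 and 35.3 CPM in vehicle livers and 22.6, 21.9 and 22.0 in insulin livers. Vehicle replicate 1 lay below the insulin livers and the other 2 vehicle livers above them, at -0.45 ± 0.25 (unadjusted p = 0.114). Without vehicle replicate 2, the unadjusted p was under 0.05 for 3 of the 10, beside 3.74% of all genes tested in that fit, and the median was -0.65. Without vehicle replicate 3 it was under 0.05 for 0 of the 10, beside 6.51%, with 3 higher and 7 lower and a median of -0.20.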
